A study of Mus musculus with 16 samples.

Results

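The 10 genes described here encode the parts of the MHC class I pathway, and they were chosen by name from knowledge of that pathway: the light chain B2m, the heavy chains H2-K1 and H2-D1, the peptide transporter subunits Tap1 and Tap2, the loading chaperone Tapbp, the immunoproteasome subunits Psmb8, Psmb9 and Psmb10, and the transactivator Nlrc5. All 10 were on the array, with 16 probes, among 18749 named genes. Of these, 9 passed the filter on dim probes in the comparison of the cuprizone (CPZ) groups, in which 13879 genes were tested, and all 10 passed in the comparison with regular diet, in which 13982 were tested. Tap1 was left out of the former because none of the CPZ groups had it well above background on every array.

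RNA came from punched-out corpus callosum of mice and was hybridised to single-colour Agilent 4x44K arrays. CPZ, fed in the chow, binds copper. Oligodendrocytes, the cells that make myelin, are lost while it is given, and the tract is myelinated again after the mice go back to normal food. The groups were 3 untreated controls on normal diet, 3 samples after 2 weeks of CPZ, 4 samples after 4 weeks of CPZ, and 6 samples on regular diet after 4 weeks of CPZ. The labels give 0.2 to 0.4% CPZ in the chow and male mice, and the methods give wild-type C57BL/6 mice, 7 to 8 weeks old, with controls matched in age to the 4-week group. The methods place the regular diet samples at 2 days or at 2 weeks after CPZ, and a figure legend of the paper gives n = 3 at each time. The labels do not say which sample is which, and the 6 arrays therefore form 1 mixed group here. The labels do not state that replicates are separate animals (the methods give 3 to 6 mice a condition), so p-values measure the spread between these samples.

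Which scanner file belongs to which sample was not settled by the deposit. Each column of the deposited table of processed values matched 1 scanner file at a Pearson's r of 0.999985 or more over 21976 probes, and the next best reached at most 0.883, yet 14 of the 16 matching files were recorded under another sample and 13 under another group. The table's values were centred so that the median of the 3 untreated columns was 0 for 100% of its probes. The scanner signals were assigned through the table's columns. With the files as recorded, 0 of the 10 genes were called in any comparison below. Their median log2 difference from untreated was then 0.55 at 2 weeks, -0.31 at 4 weeks and 0.09 on regular diet. The calls on regular diet and the directions at 4 weeks therefore rest on the assignment through the table. At 2 weeks all 9 tested genes were higher under both. The assignments place different files in the groups, so that likeness is no test of the 2-week directions.

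The arrays lay on 4 slides, had 57.3 to 72.2% of probes well above background, and their number limits the precision of every value. The oligodendrocyte markers bore out the label of a myelinated tract, with a mean log2 level of 4.70 to 5.75 on the untreated arrays, -0.21 to 3.32 at 2 weeks and 0.71 to 3.73 at 4 weeks of CPZ. The choroid plexus markers varied within each group, from -2.40 to 2.36 over all arrays. On regular diet, arrays 1 and 2 stood apart from the other 4: the mean level of the 10 microglia markers was 4.82 and 5.11 there against 2.01 to 2.25, and the differences of this group from untreated tissue are given with and without them for the 10 genes (for Tap1 the adjusted p) and for the called genes of the related lists.

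MHC class I molecules display peptides from inside a cell to CD8 T cells. Proteasomes cut proteins into peptides, and in the immunoproteasome Psmb8, Psmb9 and Psmb10 take the place of the standard catalytic subunits Psmb5, Psmb6 and Psmb7. The transporter built from Tap1 and Tap2 carries the peptides into the endoplasmic reticulum, where Tapbp (tapasin) helps load them onto a heavy chain paired with B2m. Interferons induce most of these genes, and Nlrc5 is a transactivator of class I promoters. In the healthy brain class I levels are low in most cells, and microglia are among the cells that raise them in injury.

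All values below are log2 signals relative to the 75th percentile of their array, so 0 is the level of that percentile and 1 unit is a 2-fold change. A gene was called at a Benjamini-Hochberg adjusted p under 0.05 over all tested probes in limma and at least a 2-fold difference, and each gene is given by its brightest tested probe. In whole tissue, more cells of a type and more RNA per cell cannot be told apart.

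On regular diet after CPZ, 4 of the 10 genes rose against untreated tissue: B2m, H2-K1, H2-D1 and Psmb8. Over all genes tested, 1.07% were called higher in this comparison, 149 genes, and 0 were called lower. The median difference of the 10 genes was 2.16 against -0.07 over all genes. For 9 of the 10, all but Psmb10, every regular diet array lay above every untreated array, as for 5.92% of all genes, though the difference of Nlrc5 turned to -0.12 with normexp. The same 9 had an unadjusted p under 0.05, as did 7.24% of all genes in the upward direction. Tap1 and Nlrc5 passed the filter on dim probes only through groups in which they were high, which favours such counts. The other 8 genes were well above background on all 16 arrays, and of these 7 had groups that did not overlap and 7 an unadjusted p under 0.05, against 5.07% and 6.13% of the 12570 genes detected as widely. Without regular diet arrays 1 and 2, 3 of the 4 calls held, the median difference was 1.72, and 9 of the 10 genes still had groups that did not overlap. For that last count no share over all genes is given, and fewer arrays separate more readily. The call for Psmb8 was the one lost then (difference 1.99, standard error 0.43, adjusted p = 0.0627), and 0.973% of all genes were called higher. The 4 calls also depended on the method: the test named in the methods and the fit with the replicate number as a block called 0 of the 10 genes, scaling by the median called 1, and a fit of only the 2 groups called 2. The count rested on single arrays as well: without the second or without the third untreated array 0 of the 10 genes were called, and without regular diet array 1 there were 2 calls.

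During CPZ feeding the same pathway lay higher than in untreated tissue, but no gene of it was called at either time unless the slide entered the fit. With the slide as a fixed block 1 of 9 genes was called at 2 weeks and 6 of 9 at 4 weeks, and as a random block 0 and 3, as given further on with the shares over all genes. At 2 weeks all 9 tested genes were higher, by 0.20 to 1.88, though Nlrc5 turned lower with the normexp background correction and Psmb10 with the slide as a fixed block. Their median was 1.34 against -0.02 over all genes. At 4 weeks all 9 were higher, by 0.65 to 2.04, with a median of 1.37 against 0.03. The adjusted p ranged from 0.131 to 0.893 at 2 weeks and from 0.112 to 0.585 at 4 weeks. Over all genes, 0.0937% were called higher at 2 weeks and 0.13% at 4 weeks. At an unadjusted p under 0.05, limma counted 6 of the 9 genes higher at 2 weeks against 5.19% of all genes, and 7 of the 9 at 4 weeks against 6.3%. The CPZ and untreated arrays did not overlap for 5 of 9 at 2 weeks against 8.77% of all genes, and for 7 of 9 at 4 weeks against 6.58%. Among the 8 genes well above background on every array, which leaves out Nlrc5, 5 at 2 weeks and 7 at 4 weeks had an unadjusted p under 0.05, against 4.34% and 5.73% of 12573 genes, and groups did not overlap for 4 and 7, against 7.86% and 6.17%. Both comparisons share the 3 untreated arrays with each other and with regular diet.

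Between 2 and 4 weeks of CPZ no gene of the pathway was called, and none had an unadjusted p under 0.05. The differences ran from -0.31 for Nlrc5 to 0.45 for Psmb10, with standard errors of 0.22 to 0.49. Over all genes 0% were called higher, and 5.42% were higher at an unadjusted p under 0.05. Between 4 weeks of CPZ and regular diet, again 0 of the 10 genes and 0% of all genes were called. For the 10 genes the count stayed at 0 in every alternative, whereas over all genes it depended on the setting: 391 genes were called with median scaling (39 of them higher), 97 with quantile normalization (14 higher), and 149, 143 and 113 without the third 4-week array, the first 4-week array and the first untreated array. H2-K1 (0.83) and H2-D1 (0.72) were higher on regular diet and Psmb10 lower (-0.44) at an unadjusted p under 0.05, and 6.57% of all genes were higher by that measure. The share of all genes that were lower is not given, so the value for Psmb10 has no background here. For none of the 10 did the regular diet and 4-week arrays separate upward, against 2.15% of all genes. Without regular diet arrays 1 and 2, the median difference from 4 weeks was 0.05 in place of 0.58. With single arrays left out that median ran from 0.35 to 0.86.

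**Figure D1:**
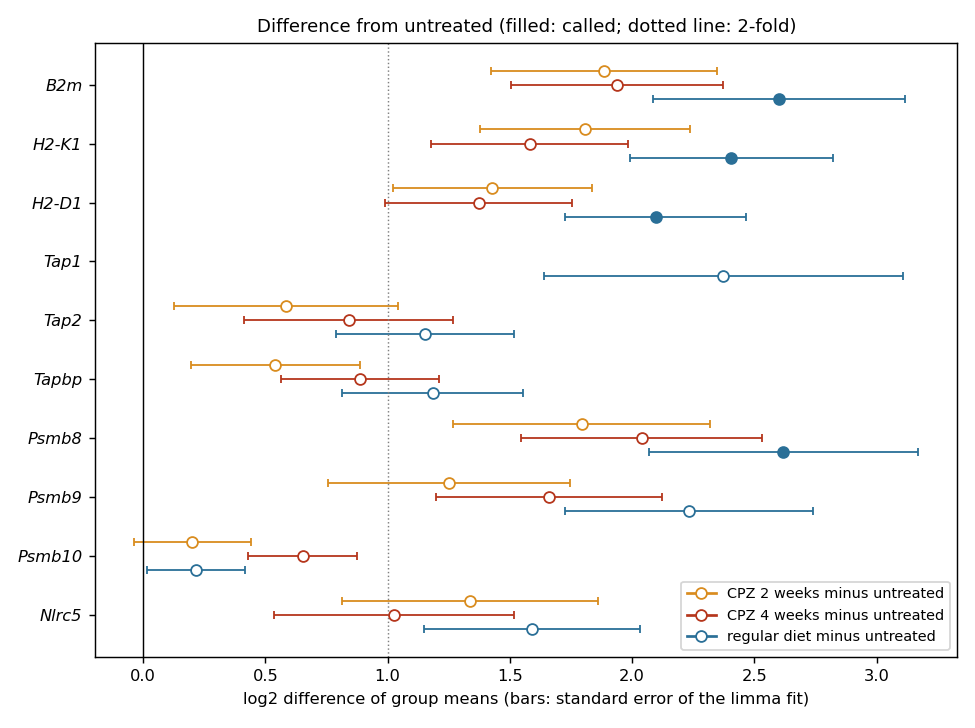
Log2 difference of each gene from the untreated arrays at 2 weeks of CPZ, at 4 weeks of CPZ and on regular diet, with bars of 1 standard error from limma; filled points were called, and the dotted line marks a 2-fold difference. B2m, H2-K1, H2-D1 and Psmb8 were called on regular diet, and Psmb10 lay closest to 0 in all 3 comparisons.

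B2m, the light chain shared by all class I molecules, had a level of 3.26, 2.16 and 2.18 on the untreated arrays. It was 4.96, 3.59 and 4.72 after 2 weeks of CPZ and 4.41, 4.04, 5.23 and 4.22 after 4 weeks. On regular diet it ranged from 4.28 to 6.50 with a median of 4.63. Each treated array lay above the highest untreated one, and regular diet arrays 1 and 2, at 6.23 and 6.50, lay above all others. B2m rose 6.07-fold on regular diet (log2 difference 2.60, standard error 0.51, adjusted p = 0.0293), and by 1.99 (0.38, adjusted p = 0.0390) without those 2 arrays. Its difference was 1.88 (0.46, adjusted p = 0.139) at 2 weeks and 1.94 (0.43, adjusted p = 0.112) at 4 weeks. A second B2m probe gave 1.70, 1.67 and 2.38 for the 3 comparisons with untreated, and its 9 to 10 spots per array varied by 2.56 to 6.27% (coefficient of variation).

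H2-K1, the K heavy chain, measured 2.44, 1.85 and 1.69 on the untreated arrays. After 2 weeks of CPZ it was 4.31, 2.89 and 4.20, and after 4 weeks 3.71, 3.08, 4.19 and 3.32. On regular diet it ranged from 3.58 to 5.39 with a median of 4.26. No treated array reached down to the untreated range. H2-K1 rose 5.30-fold on regular diet (2.41, standard error 0.42, adjusted p = 0.0155), and by 2.00 (0.37, adjusted p = 0.0357) without arrays 1 and 2. It differed by 1.81 (0.43, adjusted p = 0.131) at 2 weeks and by 1.58 (0.40, adjusted p = 0.152) at 4 weeks.

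H2-D1, the D heavy chain, measured 2.25, 1.65 and 1.77 on the untreated arrays. It was 3.62, 2.63 and 3.70 at 2 weeks, and 3.02, 2.92, 4.17 and 2.94 at 4 weeks of CPZ. Regular diet values ran from 3.36 to 4.77 with a median of 3.97. The groups again did not overlap, and the third 4-week array was the highest of its group. H2-D1 rose 4.28-fold on regular diet (2.10, standard error 0.37, adjusted p = 0.0163), and by 1.78 (0.35, adjusted p = 0.0448) without arrays 1 and 2. The other probes of both heavy chains differed from untreated by 1.07 to 2.38 over the 3 comparisons. On regular diet a dimmer H2-K1 probe missed the threshold (1.81, limma adjusted p = 0.0515). The remaining H2-K1 probe (2.16, adjusted p = 0.0215) and H2-D1 probe (2.38, adjusted p = 0.0218) passed it. Class I heavy chains are close in sequence, so a probe of one may take signal from another, and the levels of single heavy chains are uncertain.

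**Figure D2:**
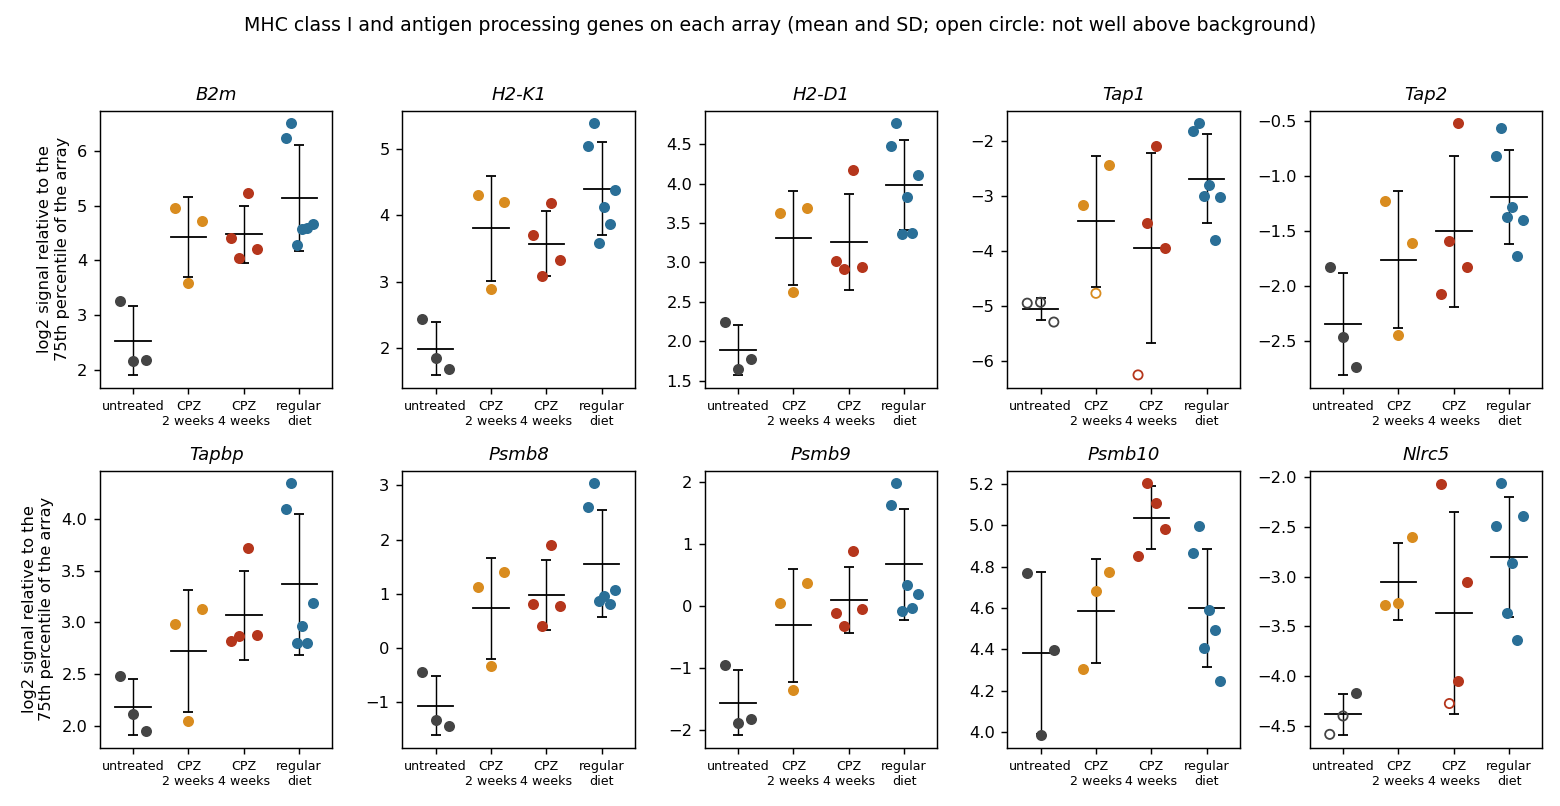
Log2 signal relative to the 75th percentile of the array for each of the 10 genes (brightest probe, own scale per panel), 1 point per array in replicate order, with the mean and SD of each group; open circles were not well above background. B2m, H2-K1, H2-D1 and Psmb8 separate all treated from all untreated arrays, while the groups overlap for Psmb10 on regular diet and at 2 weeks.

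The promoters of these 3 genes are shown because their members rose together and because class I promoters are known to carry an interferon-stimulated response element (ISRE) and a kappa B site. The sequences are RefSeq's for build GRCm38.p6, from 250 bases before to 50 after a listed start. For H2-K1 that start lies inside the annotated gene, which extends to position 34000619 on chromosome 17, so its distances are to that start and not to the outer end of the gene. They lie at chr2:122147437-122147736 (plus strand) for B2m, chr17:34000298-34000597 (minus strand) for H2-K1 and chr17:35262844-35263143 (plus strand) for H2-D1. Capitals mark matches on either strand to the ISRE letters GAAANNGAAA or the kappa B letters GGGNNTTNCC.
B2m: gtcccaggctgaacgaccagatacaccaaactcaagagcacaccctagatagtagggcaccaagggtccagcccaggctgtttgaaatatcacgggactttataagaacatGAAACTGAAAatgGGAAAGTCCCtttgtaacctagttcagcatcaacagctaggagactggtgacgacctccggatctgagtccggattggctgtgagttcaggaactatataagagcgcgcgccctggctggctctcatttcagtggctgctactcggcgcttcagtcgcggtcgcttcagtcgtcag
H2-K1: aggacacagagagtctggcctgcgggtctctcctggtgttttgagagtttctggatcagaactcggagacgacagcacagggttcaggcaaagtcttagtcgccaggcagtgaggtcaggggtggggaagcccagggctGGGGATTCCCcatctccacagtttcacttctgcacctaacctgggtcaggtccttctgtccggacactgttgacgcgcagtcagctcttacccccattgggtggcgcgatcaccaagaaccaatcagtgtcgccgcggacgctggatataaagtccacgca
H2-D1: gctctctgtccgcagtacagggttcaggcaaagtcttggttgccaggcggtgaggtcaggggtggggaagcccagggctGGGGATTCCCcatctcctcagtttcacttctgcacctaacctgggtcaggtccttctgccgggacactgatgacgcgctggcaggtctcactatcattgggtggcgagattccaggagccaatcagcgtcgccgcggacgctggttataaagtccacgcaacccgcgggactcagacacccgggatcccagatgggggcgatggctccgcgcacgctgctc

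Of the 10 genes, 8 had a promoter in the table, and Tap2 and Nlrc5 had none. The kappa B letters stood in 3 of these 8 and in 4.71% of 27025 promoters of the same length. In B2m the match began 126 bases before the start, on the opposite strand, and H2-K1 and H2-D1 held the same 10 letters, 111 and 171 bases before it. A second listed H2-K1 start put the match 125 bases before it. The ISRE letters stood in B2m alone, 139 bases before the start, and in 3.49% of all promoters. Looser forms of these letters were not searched, so a promoter without a match may still hold such an element. The letters TTCNNNGAA of a gamma-activated site stood in Psmb8 alone, 97 bases before the start, and in 8.47% of all promoters. The Y box letters CCAAT stood in 6 of 8 and in 37.9% of all promoters, but the single matches of Tap1 and Psmb9 are the same bases in the stretch their windows share, which leaves 5 promoters when they are counted once. None of these searched motifs overlapped another within a promoter. A match is a description of letters and not a bound site.

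Of the immunoproteasome subunits, Psmb8 was called on regular diet, Psmb9 missed the threshold there, and Psmb10 had the smallest difference of the genes tested in each comparison with untreated tissue. Psmb8 (the beta 5i subunit) measured -0.44, -1.32 and -1.43 on the untreated arrays, 1.12, -0.33 and 1.40 at 2 weeks, and 0.82, 0.41, 1.90 and 0.78 at 4 weeks of CPZ. On regular diet it ranged from 0.82 to 3.03 with a median of 1.01. Only the second 2-week array, at -0.33, came close to the highest untreated array. Psmb8 rose 6.14-fold on regular diet (2.62, standard error 0.55, adjusted p = 0.0428), and it differed by 1.79 (0.53, adjusted p = 0.217) at 2 weeks and 2.04 (0.49, adjusted p = 0.129) at 4 weeks. Its second probe gave 1.76, 1.96 and 2.60.

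Psmb9 (beta 1i) measured -0.95, -1.89 and -1.83 on the untreated arrays, 0.06, -1.35 and 0.37 at 2 weeks, and -0.12, -0.32, 0.89 and -0.05 at 4 weeks. The regular diet arrays ranged from -0.08 to 1.98 with a median of 0.27. The second 2-week array fell within the untreated range, and every 4-week and regular diet array lay above it. The difference on regular diet was 2.23 (standard error 0.51, adjusted p = 0.0576), just outside the threshold, 1.67 (0.40, adjusted p = 0.115) without arrays 1 and 2, and 1.25 (0.49, adjusted p = 0.435) and 1.66 (0.46, adjusted p = 0.194) at 2 and 4 weeks of CPZ. Psmb10 (beta 2i) measured 4.77, 3.99 and 4.40 on the untreated arrays, 4.30, 4.68 and 4.77 at 2 weeks, and 4.85, 5.20, 5.11 and 4.98 at 4 weeks. The regular diet arrays ranged from 4.25 to 5.00 with a median of 4.54, overlapping the untreated range. Its differences were 0.20 (0.24, adjusted p = 0.893), 0.65 (0.22, adjusted p = 0.312) and 0.22 (0.20, adjusted p = 0.651), the last being 0.05 (0.20, adjusted p = 0.956) without arrays 1 and 2. The difference of Psmb10 at 2 weeks ran from 0.0030 to 0.39 with single arrays left out.

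Each immunoproteasome subunit was set beside the standard subunit that it replaces, by taking the signed change of the former from its untreated mean minus that of the latter. This difference was above 0 on every treated array for all 3 pairs, and its mean was smallest for Psmb10 and Psmb7 in each group, where Psmb7 often lay below its untreated mean. On the first 2-week array Psmb10 changed by -0.08 and Psmb7 by -0.48, and on the first 4-week array by 0.47 and -0.94. The change of Psmb8 from its untreated mean exceeded that of Psmb5 by 1.71 ± 0.95 (SD, n = 3) at 2 weeks, 1.87 ± 0.74 (n = 4) at 4 weeks and 2.82 ± 1.06 (n = 6) on regular diet. For Psmb9 and Psmb6 these excesses were 1.38 ± 0.81, 1.45 ± 0.51 and 2.29 ± 0.75. For Psmb10 and Psmb7 they were 0.49 ± 0.14, 0.84 ± 0.39 and 0.44 ± 0.42. Without regular diet arrays 1 and 2 the means on regular diet were 2.16 ± 0.27 (n = 4) for Psmb8 and Psmb5, 1.82 ± 0.23 for Psmb9 and Psmb6, and 0.18 ± 0.14 for Psmb10 and Psmb7. All 13 treated arrays exceeded the highest untreated array for the first 2 pairs, and 11 of 13 did so for Psmb10 and Psmb7. These are descriptions, with no test. The 3 standard subunits had medians of -0.13, 0.17 and -0.20 in the 3 comparisons and 0 of 3 were called in any of them, and 0 of 11 other subunits of the 20S core were called, with medians of 0.06, 0.15 and -0.03.

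**Figure D3:**
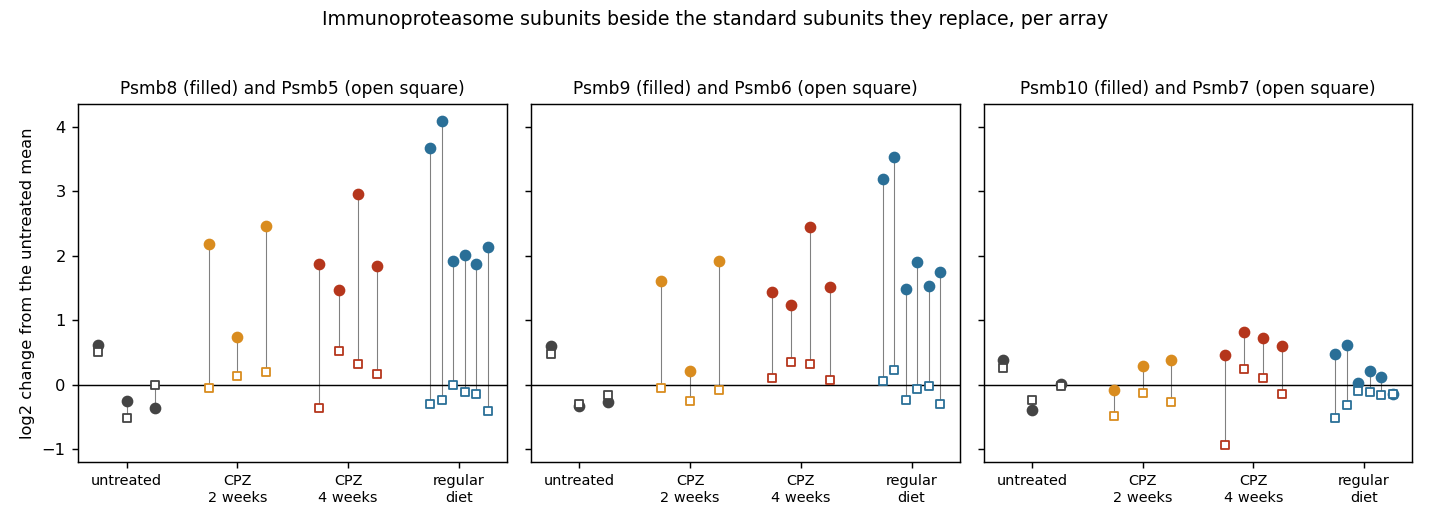
Log2 change from the untreated mean on each array for the immunoproteasome subunit (filled circle) and the standard subunit it replaces (open square), joined per array, in the 4 groups. The changes of Psmb8 and Psmb9 exceed those of Psmb5 and Psmb6 on all treated arrays, with regular diet arrays 1 and 2 the highest, and the change of Psmb10 minus that of Psmb7 runs from 0.0052 to 1.41 on the treated arrays.

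Among the transporter genes, Tap1 was not well above background on any of the 3 untreated arrays (-4.95, -4.93 and -5.29). It was well above background on 2 of 3 arrays at 2 weeks (-3.16, -4.77 and -2.44), on 3 of 4 at 4 weeks (-6.25, -3.49, -2.08 and -3.95) and on 6 of 6 on regular diet (-3.81 to -1.68, median -2.89). The first 4-week array was the dimmest of all 16, below the untreated ones. Against the lowest signal that counted as well above background, Tap1 was at least 3.99-fold higher in the mean of the 6 regular diet arrays. The limma adjusted p was 0.208, and 0.681 without arrays 1 and 2. Those arrays were the highest for Tap1 (-1.81 and -1.68), the others on regular diet lying at -3.81 to -2.79. The bound without them is lower and was not computed. No fold is given for the CPZ groups, in which not every array measured it. Such a bound takes the mean of all arrays of the brighter group and, for each untreated array, the higher of that lowest signal and the probe's own.

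Tap2, the partner of Tap1, ranged from -2.74 to -1.83 on the untreated arrays, -2.45 to -1.23 at 2 weeks, -2.07 to -0.52 at 4 weeks and -1.73 to -0.56 on regular diet. The CPZ groups overlapped the untreated range, and the regular diet group lay just above it. Its differences were 0.58 (standard error 0.46, adjusted p = 0.893), 0.84 (0.43, adjusted p = 0.585) and 1.15 (0.36, adjusted p = 0.226). Tapbp, which bridges the transporter and the empty heavy chain, ranged from 1.95 to 2.48, 2.06 to 3.13, 2.83 to 3.71 and 2.80 to 4.34 in the same order, with differences of 0.54 (0.35, adjusted p = 0.807), 0.89 (0.32, adjusted p = 0.362) and 1.18 (0.37, adjusted p = 0.217). Without arrays 1 and 2 the regular diet differences of Tap2 and Tapbp were 0.90 (0.38, adjusted p = 0.703) and 0.76 (0.29, adjusted p = 0.577). A second Tapbp probe gave smaller differences, 0.17, 0.34 and 0.44. Psmb9 and Tap1 lie head to head: their starts are 226 bases apart on opposite strands of chromosome 17, and their promoter windows share 275 bases.

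Nlrc5 was near the detection limit, with -4.59, -4.40 and -4.17 on the untreated arrays, of which 1 was well above background. It measured -3.28, -3.27 and -2.60 at 2 weeks, -2.06, -4.28, -4.06 and -3.05 at 4 weeks, and -3.63 to -2.06 with a median of -2.68 on regular diet. The 2-week and regular diet arrays all lay above the untreated ones, and the second 4-week array did not. The differences were 1.34 (standard error 0.52, adjusted p = 0.426), 1.03 (0.49, adjusted p = 0.544) and 1.59 (0.44, adjusted p = 0.145), the last being 1.33 (0.47, adjusted p = 0.495) without arrays 1 and 2. Without the first 4-week array the difference at 4 weeks was 0.59 in place of 1.03. With another background correction (normexp), Nlrc5 turned to -0.04 at 2 weeks and -0.12 on regular diet, so its direction, counted with the others above, depended on that correction.

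The arrays were also compared over the genes as a set. Taking the median change from the untreated mean over the 9 genes tested in all comparisons, the 3 untreated arrays stood at 0.45, -0.24 and -0.27. The 2-week arrays stood at 1.62, 0.74 and 1.81, the 4-week arrays at 1.44, 1.03, 2.19 and 1.33, and the regular diet arrays at 2.59, 2.88, 1.47, 1.91, 1.49 and 2.00. All 13 treated arrays lay above the untreated ones, with the second 2-week array the lowest. Without that array, 8 of 9 genes had groups that did not overlap at 2 weeks in place of 5. The matching share over all genes is not given, and smaller groups separate more readily. The median difference of 4 weeks from 2 weeks of the same 9 genes was -0.29 without it, in place of 0.24.

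The number of calls depended on whether the slide entered the fit. With the slide as a fixed block, the fit of 10 arrays had 4 residual degrees of freedom. In it limma called 1 of 9 genes at 2 weeks (H2-K1, 1.83, adjusted p = 0.0467), against 0.367% of all genes called higher. At 4 weeks it called 6 of 9, against 2.17% of all genes: B2m (2.51, adjusted p = 0.0162), H2-K1 (2.16, adjusted p = 0.0144), H2-D1 (1.84, adjusted p = 0.0374), Psmb8 (2.70, adjusted p = 0.0157), Psmb9 (2.27, adjusted p = 0.0219) and Tapbp (1.28, adjusted p = 0.0471). For regular diet the fit of 16 arrays with that block called 5 of 10, against 1.22% of all genes, Psmb9 (2.42, adjusted p = 0.0328) being added. With the slide as a random block, B2m, H2-K1 and Psmb8 were called at 4 weeks, against 1.48% of all genes called higher, and 5 of 10 genes on regular diet, against 1.53%. Within slides that held an untreated array, the median difference of the 8 genes well above background on all 16 arrays was 1.29 at 2 weeks on slide 1, 2.42 and 1.48 at 4 weeks on slides 2 and 3, and 1.30, 2.88 and 2.39 on regular diet on slides 1, 2 and 3. All 8 were higher on slides 2 and 3, and 7 of 8 on slide 1, where Psmb10 was not. Each of these slides held 1 untreated array. The 4-week group on slides 2 and 3 and the regular diet group on slide 1 also had 1 array each, which limits what these values show. Slide 4 held no untreated array.

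Markers of other cells were read on the same arrays. The mean level of the 10 microglia markers was 0.92 to 1.90 on the untreated arrays, 1.07 to 2.22 at 2 weeks, 1.89 to 2.93 at 4 weeks and 2.01 to 5.11 on regular diet, and their summed level on a linear scale ran from 27.2 to 57.9 in the untreated group and from 75.3 to 643 on regular diet. All 10 markers were tested and 0 were called in any comparison with untreated, with 3, 6 and 7 higher at an unadjusted p under 0.05 (5.19, 6.3 and 7.24% of all genes) and medians of 0.60, 1.32 and 1.85. The members of that list differed: C1qc had the largest differences at 2 and 4 weeks (1.48 and 2.06), whereas Itgam (-0.48), P2ry12 (-0.60) and Tmem119 (-0.24) lay lower than untreated at 2 weeks, and P2ry12 (0.30) and Tmem119 (0.08) differed least at 4 weeks. The second 2-week array, lowest in the class I genes among the treated, had 1.07, within the untreated range. The part of microglia in the class I values was not tested. The 4 regular diet arrays other than 1 and 2, at 2.01 to 2.25, also lay above every untreated array in the mean level of the microglia markers. Over those 4 arrays Tmem119 (-0.35), Itgam (-0.11) and P2ry12 (-0.09) lay lower than untreated. The other markers lay higher, C1qa most (1.88). The median of the list was 0.93 there, with 6 markers higher at an unadjusted p under 0.05, against 5.14% of all genes.

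T and NK cell markers were near background. Of 10 listed, 9 were on the array and 2 passed the filter, and neither was called. Their mean level ranged from -5.80 to -5.44 on the untreated arrays, -5.48 to -5.00 at 2 weeks, -5.43 to -5.04 at 4 weeks and -5.77 to -4.50 on regular diet. Ncr1 and Klrd1 were well above background on 0 of 16 arrays, and Cd8a, the coreceptor that reads class I, on 0 of 3, 1 of 3, 0 of 4 and 3 of 6. Cd3e was well above background on all 16 and Cd3d on 0 of 3, 2 of 3, 3 of 4 and 4 of 6. The part of these cells in the class I values was not tested. Astrocyte markers had a mean level of 3.62 to 4.36 on the untreated arrays, 4.11 to 4.66 at 2 weeks, 3.99 to 4.99 at 4 weeks (the highest on the third array) and 4.30 to 4.52 on regular diet. Oligodendrocyte markers on regular diet fell into a low set of arrays 1 to 3, at 1.67 to 2.61, and a high set of arrays 4 to 6, at 5.22 to 5.84, and the class I genes were above untreated in both, the lowest median change being 1.47 on array 3 and 1.49 on array 5.

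**Figure D4:**
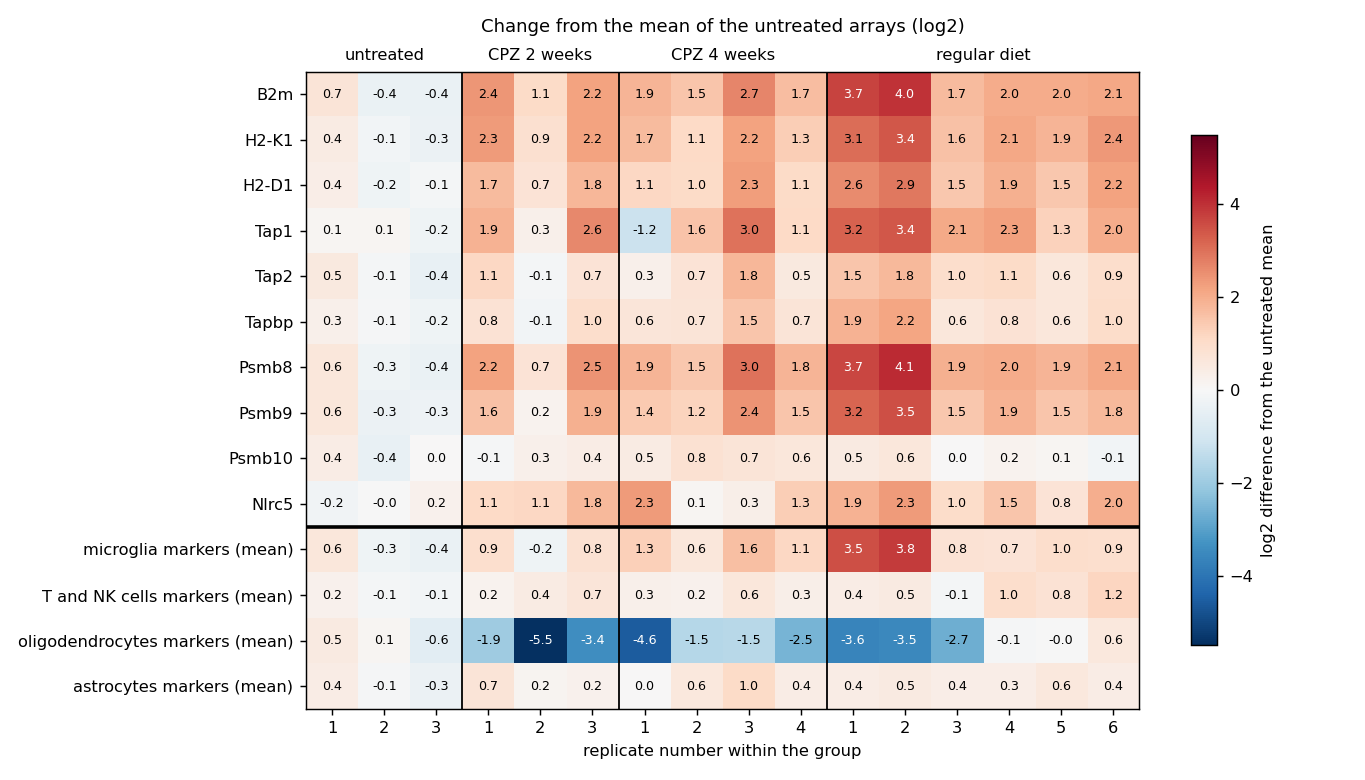
Change from the mean of the untreated arrays in log2 units for the 10 genes and, below the line, for the mean level of 4 cell type marker lists, on each of the 16 arrays (columns, by group and replicate number). Regular diet arrays 1 and 2 are highest in B2m, H2-K1, Psmb8 and the microglia markers.

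Other genes of the pathway were read from lists drawn up with results of these data known. Of 11 further class I and class I like genes listed, 10 were tested and 4 rose on regular diet, where 1.07% of all genes did: H2-Q4 (2.47, standard error 0.41, adjusted p = 0.0126), H2-Q7 (2.32, 0.38), H2-Q10 (2.09, 0.38) and H2-T23 (1.88, 0.38). As with H2-K1 and H2-D1, a probe of one heavy chain may take signal from another, so these 4 calls may not be independent. Without regular diet arrays 1 and 2, H2-Q4 (2.09, adjusted p = 0.0357) and H2-Q7 (1.97, adjusted p = 0.0343) were still called, and H2-Q10 (1.76, adjusted p = 0.0515) and H2-T23 (1.48, adjusted p = 0.0635) were not. None was called at 2 or 4 weeks of CPZ, where the list's medians were 1.27 and 1.19, with 7 and 8 genes higher at an unadjusted p under 0.05, against 5.19% and 6.3% of all genes. H2-Q4 differed by 1.68 and 1.51, and H2-Q7 by 1.68 and 1.51, at the 2 times. H2-M3, which presents formylated peptides, differed by 1.95 on regular diet (adjusted p = 0.0765) and was not called. Cd1d1, which presents lipids, differed by -1.03, -0.64 and 0.43, and Fcgrt, the neonatal Fc receptor, by 0.18, 0.01 and 0.24. Hfe, a regulator of iron uptake, differed by 1.65, 1.51 and 1.64, and Mr1, which presents vitamin metabolites, by 0.73, 1.08 and 1.42. These 4 also pair with B2m, and none was called.

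Of 25 regulators and signalling genes listed, 22 were tested and 2 rose on regular diet, against the same 1.07%: Irf7 (2.28, standard error 0.41, adjusted p = 0.0178) and Irf9 (1.80, 0.28, adjusted p = 0.00949), both interferon-response factors. Without arrays 1 and 2, Irf9 (1.62, adjusted p = 0.0345) was still called, Irf7 (2.28, adjusted p = 0.0541) was not, and Irf8 (2.12, adjusted p = 0.0249) was. Irf7 differed by 2.23 (adjusted p = 0.0888) and 1.86 (adjusted p = 0.115) at 2 and 4 weeks of CPZ. Irf8 had the largest difference of the list at 4 weeks, 2.20 (adjusted p = 0.0785), with 3.12 on regular diet (adjusted p = 0.0597). Of the 6 listed genes of the RFX and NF-Y complexes, which bind class I promoters, 0 were called. Rfxank differed by -1.02, -0.51 and -0.37 and Nfya by 0.38, 0.73 and 0.59. Rfxap differed by -0.23, 0.01 and -0.47 (adjusted p = 0.131 for the last), Nfyb by -0.12, 0.35 and -0.22, and Rfx5 and Nfyc by at most 0.22 in size. The list's medians were 0.33, 0.36 and 0.45, the last being 0.10 without arrays 1 and 2.

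Of 3 proteasome activator genes 0 were called, with Psme1 at 0.46, 0.85 and 0.75 and Psme2 at 0.32, 0.64 and 0.80. Of 5 genes for peptide trimming and loading 0 were called, the largest differences being those of the trimming peptidase Erap1, with 0.77, 1.07 and 1.26. Calr and Canx, general chaperones that also serve class I folding, differed by -0.36 to 0.31.

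**Figure D5:**
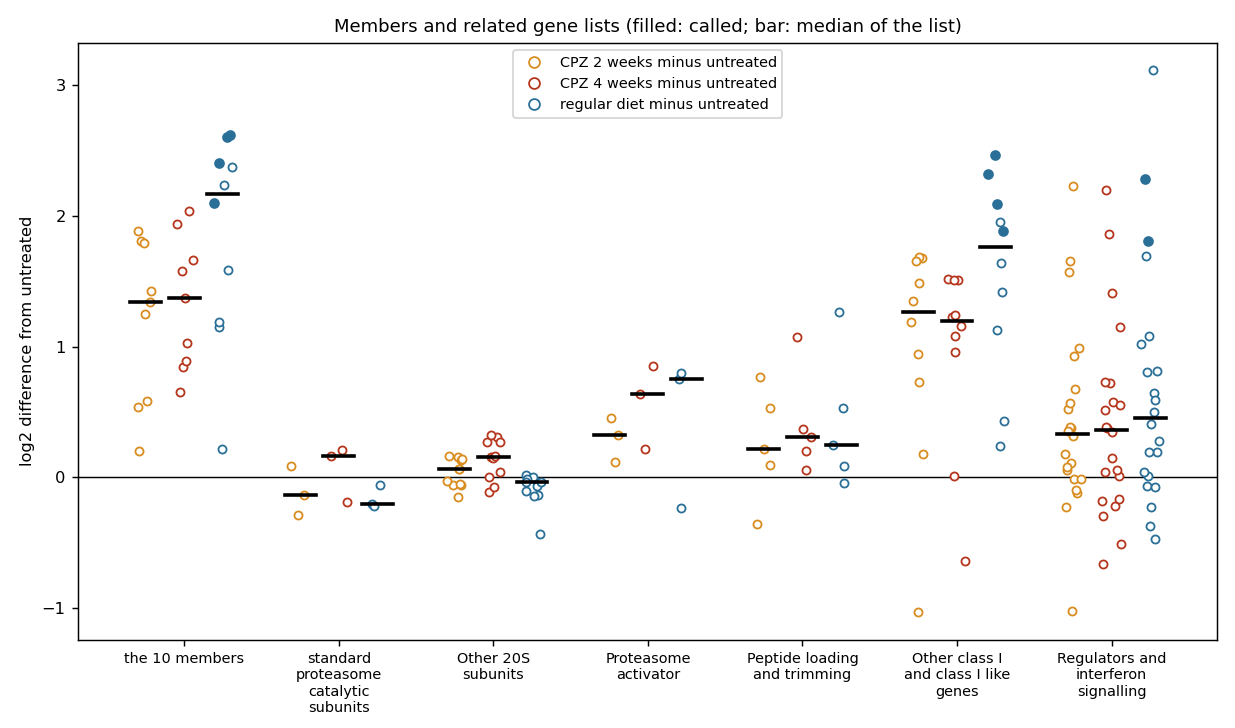
Log2 difference from untreated of each tested gene of the 10 members and of 6 related lists, at 2 weeks of CPZ, 4 weeks of CPZ and on regular diet; filled points were called and bars are list medians. The members and the other class I genes sit above 1 in the median in all 3 comparisons, and the standard proteasome subunits sit near 0.

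The genes whose levels over the 16 arrays ran most like those of B2m, H2-K1 and Psmb8 outside the 10 genes themselves, were sought among 12562 genes well above background on every array. Within the 10, Psmb8 and Psmb9 correlated at 0.991, H2-K1 and H2-D1 at 0.981 and B2m and H2-K1 at 0.978. Outside them, the closest to B2m were Tlr2, which ranked first, Lag3 (Pearson's r 0.983), Parp9 (0.982), Myo1f (0.981) and Cxcl16 (0.977). The closest to H2-K1 were H2-Q4 (0.986), H2-Bl (0.984), H2-Q7 (0.982), Parp9 (0.980) and Parp14 (0.977). The closest to Psmb8 were Parp9, Tlr2, Lgals3bp, Zc3hav1 and Fcgr1, at 0.978 to 0.983. Without regular diet arrays 1 and 2, these 15 values ran from 0.961 to 0.983 over 14 arrays. The arrays share group, slide and tissue makeup, and these values describe likeness over arrays only. Probes of class I heavy chains may also take signal from one another, as given above.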

How the data were processed

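Total RNA of 16 corpus callosum samples was hybridised to 1-colour Agilent arrays. The authors deposited 16 scanner outputs holding spot intensities (Feature Extraction 11.0.1.1 in the submitters' processing notes, another release in the methods), of which the background-subtracted processed signal was used. A deposited table held log2 values that the authors had scaled between arrays and centred per probe on the median of the untreated columns. Each scanner output was assigned to the sample whose column in that table it matched, a choice made with results under both assignments known.

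Control and outlier spots were dropped, spots of a probe averaged, and the log2 intensity set relative to the array's 75th percentile. A probe was well above background where no fewer of its spots were so marked than not, and it was tested if this held on every array of at least 1 group in the model. The 3 CPZ and control groups were fitted in 1 limma model (limma 3.58.1, R 4.3.3; 10 arrays, 7 residual degrees of freedom), and regular diet was compared in a model of all 16 arrays (12 residual degrees of freedom). limma stands in for the methods' ANOVA with Tukey's test, an alternative here. limma's recovery of planted differences was checked on simulated data. Probe accessions were named through RefSeq (GRCm38.p6), which named 27479 of 41174 probes (66.7%). Genes were named in the text if they were members, if they were called in a list, or as up to 4 of a list with the largest differences at 4 weeks of CPZ, and a few others were named after their values were seen. The alternatives were the recorded assignment, the deposited table, other background corrections, scalings and filters, the slide or the replicate number as a block, single arrays left out, and other models. Protein sequences were not used here. The members and lists were chosen with earlier results of these data known.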

Additional observations from a re-analysis of the deposited data

Results flagged for a closer look

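In 2 of 20 groups of 4 or 6 arrays examined, 1 array stood far from the rest of its group. Both concerned the third array at 4 weeks of CPZ, which was the highest of its group for H2-D1 (4.17, the other 3 arrays at 2.92 to 3.02) and for Tapbp (3.71, the others at 2.83 to 2.88). Chance alone sets apart about 1 group in 20 by this measure. The same array had the highest choroid plexus (2.36) and astrocyte markers (4.99) of all 16 arrays and the highest microglia markers of its group (2.93), and the part of these in the 2 values was not tested.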

How the results depend on the processing

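The assignment of scanner files mattered most. With the files as recorded, the median difference of the genes was 0.546 at 2 weeks, -0.308 at 4 weeks, -0.942 between 4 and 2 weeks and 0.0927 on regular diet, 0 genes were called on regular diet in place of 4, and 1, 0 and 0 genes had groups that did not overlap. Differences then reversed at 4 weeks for B2m (-0.453), H2-K1 (-0.454), H2-D1 (-0.298), Tap2 (-0.318), Tapbp (-0.0622), Psmb8 (-0.418), Psmb9 (-0.265), Psmb10 (-0.146) and Nlrc5 (-0.0766), and on regular diet for H2-K1 (-0.0474), Tap1 (-0.359) and Tap2 (-0.135). With normexp on the median signals, chosen after seeing the data because the files hold no mean signal, the medians were 0.739 at 2 weeks and 1.38 on regular diet, and Nlrc5 reversed to -0.0438 and -0.122. The planned normexp on mean signals was not run. With the slide as a fixed block, 1 gene was called at 2 weeks and 6 at 4 weeks, and Psmb10 reversed at 2 weeks (-0.0033). With the slide as a random block 3 were called at 4 weeks.

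On regular diet, 1 gene was called with median scaling, 2 in a fit of only the 2 groups compared and 0 with the methods' ANOVA and Tukey's test. Median scaling left 1 gene with groups apart at 2 weeks and shifted the median of all genes to -0.18 at 2 weeks, 0.15 at 4 weeks and -0.26 on regular diet. The replicate numbers did not pair the samples, since deviations of same-numbered arrays correlated at -0.81 to 0.21 among the untreated and CPZ groups and at -0.32 to 0.34 between regular diet and those groups, and with the replicate block 0 genes were called on regular diet and, as without it, 0 at 2 and 4 weeks. Leaving out single arrays gave 0 to 5 calls on regular diet, medians of -0.324 (with Tap1 then tested) to 0.332 between 4 and 2 weeks, and 5 to 8 genes with groups apart at 2 weeks. Without regular diet arrays 1 and 2, left out after seeing the data, the median difference between regular diet and 4 weeks was 0.0547. The call for Psmb8 was lost in 18 of 30 alternatives, that for B2m in 8, for H2-D1 in 6 and for H2-K1 in 5, and Psmb9 gained a call in 3. Over all genes tested, 33 were called at 2 weeks (0 to 203 under the alternatives), 28 at 4 weeks (0 to 331) and 149 on regular diet (0 to 215), with the highest counts where the slide was a block and 0 on regular diet with the files as recorded. The cause of these changes was not tested. At 2 and 4 weeks no single array left out changed the count of 0 calls. Tap1 and Nlrc5 lay near background, which limits what their values show.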
